A study of Mus musculus with 10 samples.

Results

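The results concern 10 genes that write, copy, guide or remove DNA methylation in mouse embryonic stem cells. They were taken by name: Dnmt1, Dnmt3a, Dnmt3b, Dnmt3l, Uhrf1, Tet1, Tet2, Tet3, Tdg and Zfp57. Each had 1 row of its own among the 50273 rows of the deposited count table, no row was merged with another gene, and all 10 passed the filter on low values. The 5 groups of 2 RNA sequencing libraries all came from cells kept in 2i/LIF, a medium with the cytokine LIF and drugs that block MEK and GSK3. The KO group (Mof-KO) and the WT group (wild type) were both C57BL/6J cells with Mof fl/fl alleles and Cre-ER TM, so the WT cells also carried the floxed alleles and the tamoxifen-inducible Cre. These cells received ethanol or 100 nM 4-hydroxytamoxifen for 3 days, and the labels do not state which group received which or what promoter drives Cre. Mof is the gene Kat8, a histone acetyltransferase. The other 3 groups were of the E14tg2a line: Released (etomoxir for 4 days, then another 4 days without it), ETO (etomoxir for 4 days, no concentration given) and Control (H2O for 4 days). Etomoxir blocks the CPT1 enzymes that admit long-chain fatty acids to mitochondria for oxidation. The labels call the 2 libraries of a group biological duplicates and name no separate cultures, so p-values here cover the spread between libraries, which may be technical. No group had Cre activated over intact Mof, so drug, Cre and Mof loss cannot be told apart in KO cells. No Control group was kept for the added 4 days. In comparisons of Released with Control or ETO, longer culture thus cannot be told apart from etomoxir history or release.

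Methyl groups on cytosine in CpG pairs are lost by dilution when DNA is copied unless they are restored. Uhrf1 binds CpG sites methylated on only the old strand and recruits Dnmt1, the maintenance methyltransferase, which methylates the new strand. Dnmt3a and Dnmt3b methylate sites de novo, and Dnmt3l, which has no catalytic activity of its own, stimulates both. The Tet enzymes oxidise 5-methylcytosine to 5-hydroxymethylcytosine and further products, and Tdg, a DNA glycosylase, cuts out the most oxidised forms. Zfp57, a KRAB zinc finger protein, binds methylated imprinting control regions and keeps their methylation through early development. Embryonic stem cells in 2i/LIF are known for low overall DNA methylation and for low de novo methyltransferase expression. The values below are RNA levels; protein amounts and DNA methylation were not analysed here.

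RefSeq (GRCm38.p6) gave 19 promoter windows for the 10 genes, each from 250 bases before to 50 after a transcription start. The 4 shown are those of genes whose RNA moved most between ETO and Control or belongs to the maintenance pair. Where a gene has several windows, the 1 shown was chosen after the motif search: those of Uhrf1 (of 2) and Dnmt1 (of 3) are the only windows of these genes with an E2F-type motif, and that of Dnmt3a (of 3) lies at the start farthest inside the gene. Capitals mark TTTCGCGC or TTTGGCGC (letters bound by E2F factors) and CCAAT, on either strand.
Uhrf1, chr17:56304063-56304362, plus strand: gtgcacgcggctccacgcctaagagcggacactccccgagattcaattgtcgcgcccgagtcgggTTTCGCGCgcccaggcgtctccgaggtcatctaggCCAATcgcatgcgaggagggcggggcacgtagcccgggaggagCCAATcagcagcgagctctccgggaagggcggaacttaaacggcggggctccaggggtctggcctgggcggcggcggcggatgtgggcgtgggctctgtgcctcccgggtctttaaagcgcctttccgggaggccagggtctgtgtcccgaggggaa
Dnmt1, chr9:20952574-20952873, minus strand: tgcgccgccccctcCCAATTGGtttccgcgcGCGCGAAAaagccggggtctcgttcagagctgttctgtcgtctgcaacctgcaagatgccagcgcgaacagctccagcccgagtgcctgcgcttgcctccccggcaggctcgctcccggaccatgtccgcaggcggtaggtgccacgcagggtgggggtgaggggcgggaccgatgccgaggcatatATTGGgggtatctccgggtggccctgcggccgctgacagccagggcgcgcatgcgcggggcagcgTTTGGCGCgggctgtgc
Dnmt3b, chr2:153649199-153649498, plus strand: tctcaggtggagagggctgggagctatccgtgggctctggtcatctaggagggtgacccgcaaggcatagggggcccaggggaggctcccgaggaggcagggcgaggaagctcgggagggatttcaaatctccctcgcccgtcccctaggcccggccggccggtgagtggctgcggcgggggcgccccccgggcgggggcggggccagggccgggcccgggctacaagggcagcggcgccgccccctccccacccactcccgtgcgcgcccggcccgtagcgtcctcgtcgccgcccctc
Dnmt3a, chr12:3891494-3891793, plus strand: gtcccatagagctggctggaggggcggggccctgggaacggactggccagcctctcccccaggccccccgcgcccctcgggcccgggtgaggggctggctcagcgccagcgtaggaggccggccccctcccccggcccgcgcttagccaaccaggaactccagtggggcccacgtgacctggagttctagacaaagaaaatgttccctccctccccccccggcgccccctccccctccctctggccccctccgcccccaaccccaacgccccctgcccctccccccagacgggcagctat
The Uhrf1 window holds TTTCGCGC at base 66 and CCAAT at bases 101 and 144, counted from 1 at the 5' end. The Dnmt1 window holds TTTCGCGC on the other strand at base 32, TTTGGCGC at base 284, and CCAAT at bases 15, 18 and 219, the first pair overlapping on opposite strands. Neither E2F-type motif was found in the other 17 windows of the 10 genes, and 0.813% of 32851 RefSeq promoter windows of this length hold at least 1. CCAAT lay in 7 of the 19 windows and in 37.4% of all windows. TGATGNAA, a motif of ATF4 and C/EBP factors searched on both strands, lay in 0 of the 19 and in 3.97% of all. The genes differed in CpG content: the Tet2 window holds 57 CpG pairs, Dnmt3b 30, and those of Tdg, Tet3 and Tet1 hold 26, 22 and 17. Windows of 1 gene also differed: the Uhrf1 windows hold 33 (shown) and 12, those of Dnmt1 33 (shown), 12 and 2, and those of Dnmt3a 18 (shown), 46 and 47. The Dnmt3l windows hold 6, 4 and 3 and those of Zfp57 4, 6 and 9. The median of all windows was 7. These matches describe letters in the windows and say nothing of binding.

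Normalised counts totalled 10562067 to 13326172 per library, from an estimated 9783467 to 16778540 reads, and 3 reads, the limit that a count of 0 allows, equal 2.07 to 4.04 normalised counts; these cover counting error only. Kat8 measured 222 and 205 normalised counts in KO libraries, against 433 and 357 in WT libraries (log2 change -0.88, SE 0.11, limma adjusted p = 3.64e-05); the row does not separate deleted exons from the rest. Pluripotency markers summed to 37555 and 37964 in KO, 39556 and 41854 in WT, 46175 and 46281 in Released, 25921 and 26816 in ETO, and 44368 and 44744 in Control. Esrrb made up the largest part of the KO and WT sums (13446 and 12709 in KO, 17996 and 16807 in WT). In KO against WT, 3 of the 7 measured pluripotency markers were called higher (Zfp42, Nanog and Klf4) and 2 lower (Esrrb and Tbx3). Over all genes 24.6% were called higher and 13.3% lower there. On each of the 3 other scales 2 of the 7 were higher and 3 lower. All 7 fell in ETO against Control, where 34.0% of all genes fell. Of markers of other cell types, the 5 measured primitive endoderm genes summed to 91.5 to 94.2 in KO, 103 to 104 in WT, 576 to 654 in Released, 533 to 555.5 in ETO and 225 to 244 in Control. The Released sum was mostly Dab2 (503 and 584 in Released, 284 and 272 in ETO, 209 and 182 in Control), whereas Gata4 and Gata6 were called higher in ETO than in Control and lower in Released than in ETO. Gata4 measured 37.9 and 29.3 in Released and 135 and 127 in ETO, against 22.0 and 20.8 in Control. The 5 measured trophectoderm genes summed to 274 to 278 in KO, 264 to 275 in WT, 112 to 140 in Released, 411 to 449 in ETO and 75.8 to 108 in Control, with Cdx2 and Hand1 at 0 in KO and WT. Krt7 made up most of the ETO sum (309 and 337 in ETO, against 16.5 and 16.6 in Control), while Cdx2, the defining marker, was called lower in ETO (5.93 and 7.47 in ETO, against 61.6 and 35.3 in Control). The 5 measured fibroblast genes summed to 31.4 to 44.4 in KO, 29.5 to 37.9 in WT, 62.1 to 72.3 in Released, 165.1 to 165.2 in ETO and 56.1 to 57.1 in Control. Col1a1 made up most of the ETO sum (152 and 154 in ETO, against 39.6 and 40.5 in Control). Of the 2 tested fibroblast genes, Col1a1 was called higher in ETO and Thy1 was not called (10.9 and 5.81 in ETO, against 9.91 and 10.4 in Control). Of 6 genes listed for 2-cell-like cells, 1 passed the filter, Eif1ad, at 714 to 1233 over all libraries. Zscan4c, Zscan4d, Zscan4f and Tcstv3 lay at 0 to 3.30 and Usp17la at 0 to 10.8. The 6 measured markers of primed or formative cells summed to 605 to 635 in KO, 434 to 477 in WT, 640 to 727 in Released, 246 to 263 in ETO and 756 to 766 in Control. Of the 5 tested, 2 were called higher in KO (0 to 1 on the 3 other scales), 3 lower in ETO against Control, and 4 higher in Released against ETO. Over all genes these shares were 24.6%, 34.0% and 33.1% in turn. The part of these markers in the results below was not tested.

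Of the 10 genes, 6 passed an adjusted p of 0.05 between KO and WT (5 higher and 1 lower), where 37.9% of 16056 tested genes did so (24.6% higher and 13.3% lower). Between ETO and Control 8 passed (3 higher and 5 lower), against 60.8% of all genes (26.8% and 34.0%). Between Released and ETO 8 passed (7 higher and 1 lower), against 57.7% (33.1% and 24.6%). Between Released and Control 4 passed, all higher, against 12.5% (7.03% higher and 5.51% lower). The 3 comparisons within E14tg2a share libraries with each other. The median log2 change of the 10 genes was 0.25, -0.15, 0.68 and 0.15 in these comparisons in turn, beside 0.082, -0.094, 0.097 and 0.0063 over all tested genes. With so many genes called in KO, ETO and Released against ETO, a call alone says little, and the sizes below carry the description. The scale of the libraries sets the balance of calls: genes higher in KO made up 64.8% of calls on the deposited scale and 37.0% to 52.5% on 3 other scales. Genes higher in ETO made up 44.1% of calls, and 49.0% to 57.0% on the others. Genes higher in Released made up 57.4% against ETO (45.8% to 52.5% on the others) and 56.1% against Control (58.1% to 66.5%). With total signal as the scale, the median change of all genes was -0.076 between KO and WT, 0.069 between ETO and Control and -0.033 between Released and ETO.

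**Figure D1:**
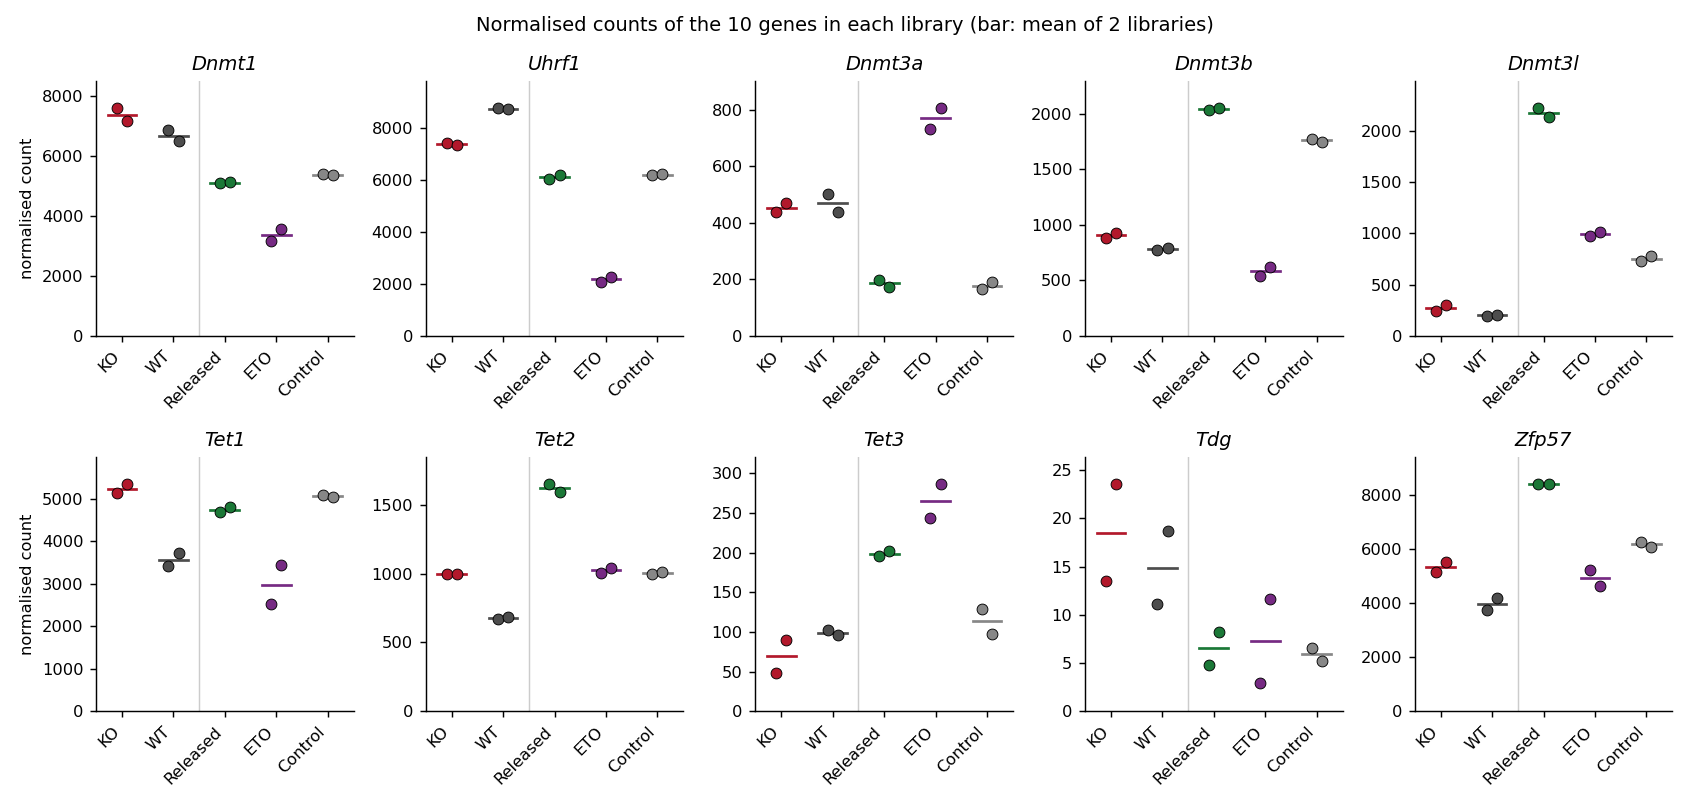
Normalised counts (y axis, 1 panel per gene with its own scale) of the 10 genes in the 10 libraries; points are libraries and bars the mean of 2. Uhrf1, Dnmt1 and Dnmt3b are lowest in ETO and Dnmt3a is highest there, while Dnmt3l, Tet2 and Zfp57 are highest in Released; Tdg lies between 2.97 and 23.6.

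The maintenance pair fell in ETO cells and returned after release. Uhrf1 (mm10 chromosome 17, 56303321 to 56323486, plus strand) measured 2081 and 2262 normalised counts in ETO, against 6182 and 6234 in Control. Both ETO libraries lay far below both Control libraries, at 0.350 of the Control mean (log2 change -1.52, SE 0.055, adjusted p = 7e-12). In bulk RNA, fewer cells expressing a gene and less RNA per cell cannot be told apart. In Released cells Uhrf1 measured 6042 and 6200, so the libraries stood clear of ETO (1.496, SE 0.055, adjusted p = 1.24e-11) and overlapped Control. The difference between Released and Control was -0.021 with a 95% interval from -0.14 to 0.096. Dnmt1 (chromosome 9, 20907209 to 20959888, minus strand) measured 3139 and 3566 in ETO, against 5397 and 5337 in Control. The log2 change was -0.68 (SE 0.063, adjusted p = 1.93e-07), smaller in size than that of Uhrf1. Dnmt1 then measured 5097 and 5108 in Released, above both ETO libraries (0.61, SE 0.063, adjusted p = 8.03e-07) and just below both Control libraries (-0.073, interval -0.21 to 0.062, adjusted p = 0.501).

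In KO cells the pair moved less. Uhrf1 measured 7429 and 7332 in KO, against 8762 and 8740 in WT, and fell (log2 change -0.25, SE 0.055, adjusted p = 0.00249). The KO libraries lay below both WT libraries, and relative to the median of all genes the change was -0.33; in the FPKM values it was -0.25 with an adjusted p of 0.0893. Dnmt1 measured 7577 and 7142 in KO, against 6841 and 6499 in WT. The libraries did not overlap, but the change of 0.14 (SE 0.063, interval 0.0067 to 0.28) had an adjusted p of 0.0915 and stood 0.059 above the median of all genes. By FPKM, Uhrf1 exceeded Dnmt1 in every library. By normalised count Dnmt1 was the higher in KO replicate 1 (7577 against 7429) and in both ETO libraries (3139 and 3566, against 2081 and 2262 for Uhrf1). The ratio of their FPKM values was 3.07 and 3.21 in KO, against 3.79 and 4.38 in WT. It was 3.27 to 3.31 in Released and 1.70 to 1.90 in ETO, against 3.06 to 3.43 in Control, so the ETO libraries had the lowest ratio of all groups. Part of the Uhrf1 signal may be shared with a processed pseudogene: Gm5648 matches 1590 of the 3586 transcript bases at 98.3% identity. Gm5648 had 1286 and 1136 normalised counts in KO, against 1630 and 1443 in WT, and 371 and 423 in ETO, against 1126 and 1193 in Control. How reads were split between both rows was not tested.

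Genes of DNA replication moved the same way in ETO. All 27 measured S phase genes fell in ETO against Control, where 34.0% of all genes fell (median log2 change -1.04 beside -0.094). All 27 rose in Released against ETO, where 33.1% of all genes rose. Their summed level was 57417 to 57974 in Released, 30000 to 30647 in ETO and 60506 to 61046 in Control. In KO, 10 of the 27 rose and 2 fell (24.6% and 13.3% of all genes), with a median log2 change of 0.081 beside 0.082. The 27 genes summed to 64884 to 65156 in KO, against 60623 to 61601 in WT. With total signal as the scale, 2 rose and 9 fell in KO, where 2172 and 3696 of all 16056 tested genes did so. The part of replication in the changes of Uhrf1, Dnmt1 and Dnmt3b was not tested.

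Of 8 measured partners of maintenance methylation, 6 fell and 1 rose in ETO (34.0% and 26.8% of all genes), with a median log2 change of -0.78 beside -0.094. Lig1, the ligase that joins Okazaki fragments and binds Uhrf1 once methylated, averaged 1743 ± 145 normalised counts in ETO and 3853 ± 55.9 in Control (SD, n = 2 each; -1.15, adjusted p = 5.05e-10). Cdca7, the zinc finger partner of the remodeller Hells, fell by 1.04 (adjusted p = 1.75e-09), and Pcna, the replication clamp, fell by 1.07 (adjusted p = 4.68e-09). The member that rose was Dppa3, which in mouse displaces Uhrf1 from chromatin. In Released against ETO 6 rose and 2 fell (33.1% and 24.6% of all genes), with Lig1 at 1.14 and Hells at 1.16 (adjusted p = 1.96e-08). Against Control 3 of the 8 were lower in Released (5.51% of all genes), among them Uhrf2, the paralog of Uhrf1, at 699 ± 16.1 in Released and 1069 ± 5.94 in Control (-0.61, adjusted p = 0.000402). In KO 5 of the 8 rose and none fell (24.6% and 13.3% of all genes), with Usp7, a deubiquitinase that stabilises Dnmt1 and Uhrf1, at 8536 ± 202 in KO and 6329 ± 650 in WT (0.44, adjusted p = 8.9e-05). With total signal as the scale, 2 of the 8 rose and 2 fell in KO.

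**Figure D2:**
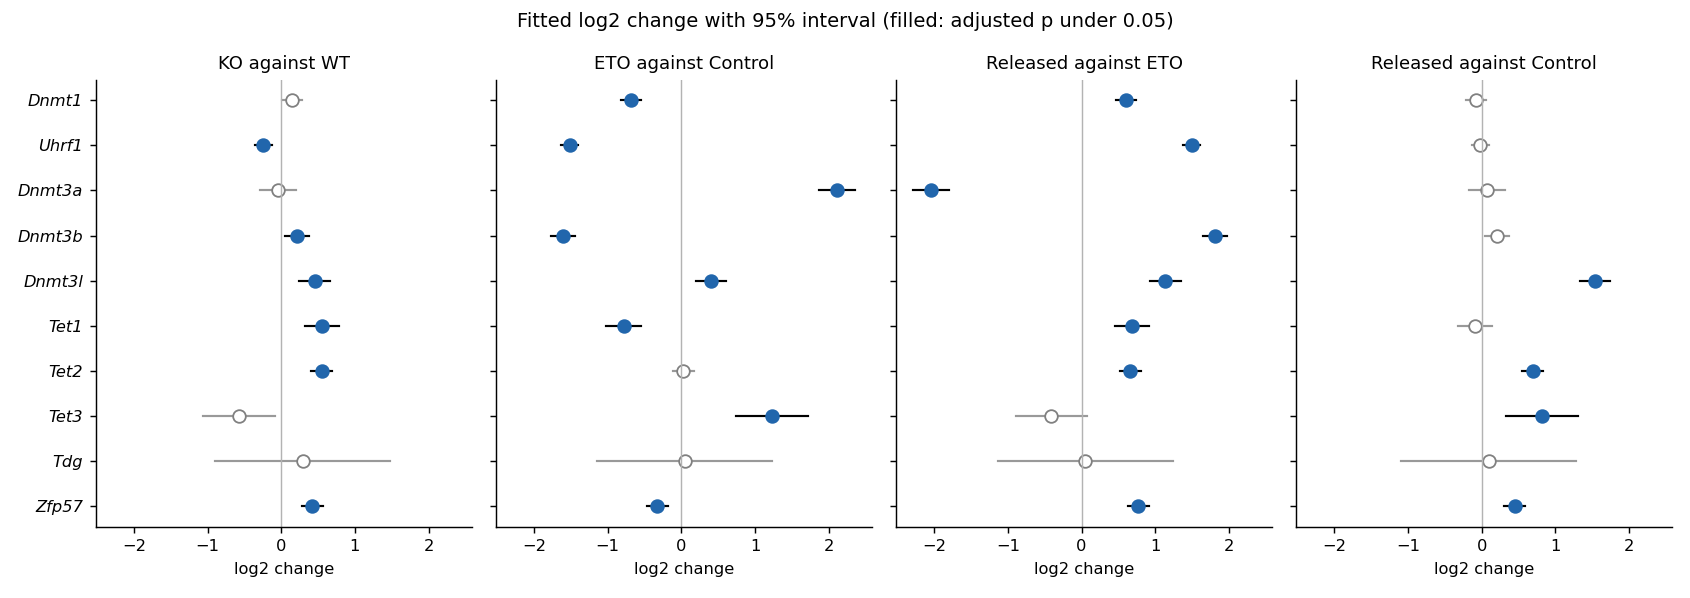
Fitted log2 change (x axis) of each gene (rows) in 4 comparisons, with 95% intervals; filled points have an adjusted p under 0.05. In ETO against Control, Dnmt3a (2.11) and Dnmt3b (-1.60) lie on opposite sides of 0; in Released against Control, Dnmt3l (1.54) stands farthest from 0.

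The de novo methyltransferases changed in opposite directions in ETO. Dnmt3a (chromosome 12, 3806007 to 3914443, plus strand) measured 732 and 805 normalised counts in ETO, against 165 and 189 in Control. That is 4.34 times the Control mean (log2 change 2.11, SE 0.11, adjusted p = 4.65e-10), with both ETO libraries far above both Control libraries. In Released it measured 198 and 173, a fall against ETO (-2.04, SE 0.11, adjusted p = 9.58e-10) to values that overlap Control (0.070, interval -0.17 to 0.31). Dnmt3b (chromosome 2, 153649450 to 153687730, plus strand) measured 539 and 623 in ETO, against 1777 and 1750 in Control. The ETO libraries lay at 0.329 of the Control mean (-1.60, SE 0.076, adjusted p = 1.19e-10). Released libraries measured 2032 and 2052, above ETO (1.82, SE 0.076, adjusted p = 4.98e-11). Both Released libraries also lay above both Control libraries, by 0.21 (interval 0.049 to 0.37), but the adjusted p was 0.0838; 5 of 21 alternatives called it. The count table has 1 row for Dnmt3a, so its long form and the shorter form started inside the gene, the main form in embryonic stem cells, are not separated.

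Dnmt3l (chromosome 10, 78041947 to 78063622, plus strand), the catalytically inactive cofactor, followed a different course. It measured 977 and 1010 in ETO, against 729 and 777 in Control, a rise of 0.40 (SE 0.098, adjusted p = 0.00227) that in the FPKM values was 0.32 with an adjusted p of 0.0641. In Released it measured 2226 and 2143, above both ETO libraries (1.14, SE 0.098, adjusted p = 9.61e-08). Released stood at 2.90 times the Control mean (1.54, SE 0.098, adjusted p = 2.48e-07), the change of the 10 genes farthest from 0 in that comparison. Its exons share 67 bases with Aire on the opposite strand, whose row ranged from 9.96 to 156 normalised counts. Strand use in counting is not given in the sources used here.

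Differences between KO and WT were small for the 2 enzymes. Dnmt3a measured 437 and 469 in KO, against 502 and 436 in WT, so the groups overlapped (-0.047, interval -0.29 to 0.20, adjusted p = 0.783). Dnmt3b measured 884 and 927 in KO, against 770 and 788 in WT (0.22, SE 0.076, adjusted p = 0.0358). The Dnmt3b libraries did not overlap, but the call was lost in 14 of 21 alternatives, and with total signal as the scale the change was 0.049. Dnmt3l measured 244 and 304 in KO, against 196 and 200 in WT, a rise of 0.45 (SE 0.098, adjusted p = 0.00197) with KO replicate 2 the higher KO library.

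**Figure D3:**
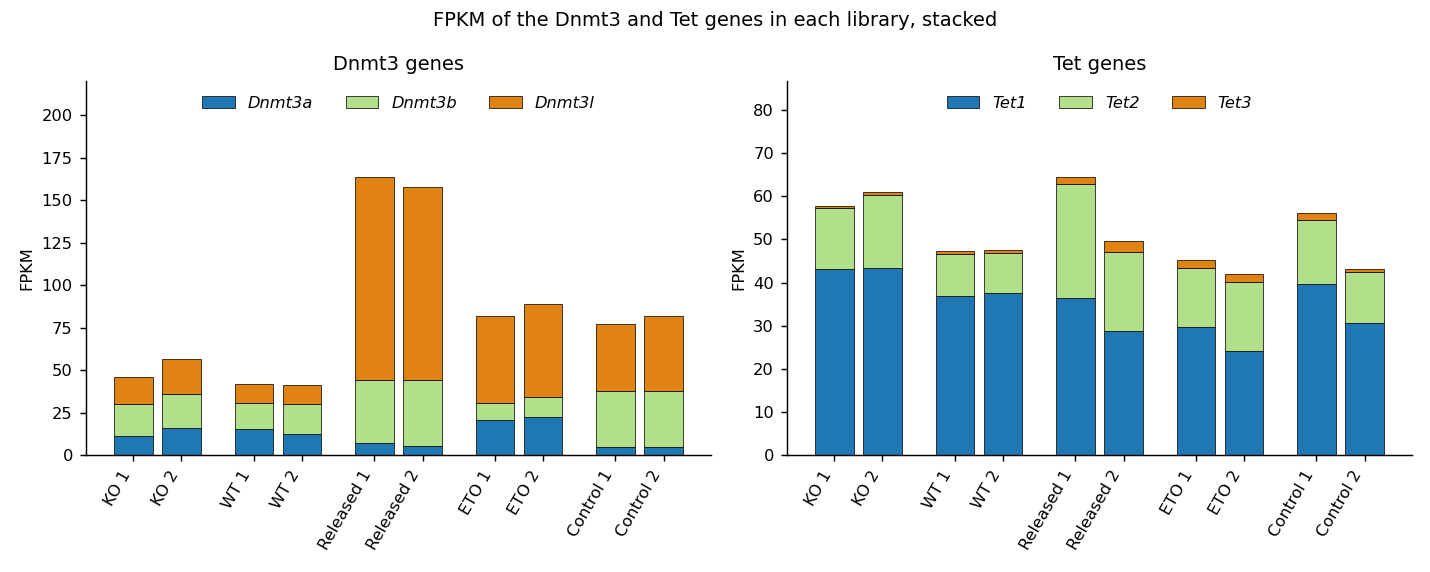
FPKM (y axis) of the Dnmt3 genes (left) and Tet genes (right) stacked for each library. Dnmt3l makes up 72.0% to 73.0% of the Dnmt3 sum in Released and 26.7% to 27.0% in WT, and Dnmt3a 25.1% to 25.3% in ETO, against 6.29% to 6.71% in Control.

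By FPKM, the makeup of the Dnmt3 genes changed more than their sum in ETO. The 3 genes summed to 81.6 and 88.8 FPKM in ETO, against 77.4 and 82.1 in Control, with overlap. The ratio of Dnmt3b to Dnmt3a FPKM was 0.492 to 0.543 in ETO, against 6.28 in both Control libraries, and it was 5.26 to 7.07 in Released. The sum was 158 and 164 in Released, with Dnmt3l at 119 and 114 FPKM in Released, against 39.6 and 44.5 in Control. In KO the sum was 46.1 and 56.7, against 41.1 and 42.1 in WT, with Dnmt3l at 34.8% to 36.0% of it in KO, against 26.7% to 27.0% in WT. Dnmt3b to Dnmt3a ratios of KO (1.23 to 1.62) and WT (1.01 to 1.42) overlapped.

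Of 6 measured genes that recruit or regulate Dnmt3 proteins, 5 fell and none rose in ETO (34.0% of all genes fell; median -0.35; 2 to 5 fell on the 3 other scales), and 5 rose in Released against ETO (33.1% of all genes). Prdm14, a repressor of Dnmt3b and Dnmt3l in mouse embryonic stem cells, averaged 263 ± 27.7 in ETO and 741 ± 59.5 in Control (-1.49, adjusted p = 3.63e-09). It averaged 706 ± 20.2 in Released (1.43 against ETO, adjusted p = 7.61e-09). Dppa2 and Dppa4, which form a chromatin-binding pair, rose in Released against ETO by 0.71 (adjusted p = 0.00026) and 0.56 (adjusted p = 0.000334). In KO 2 of the 6 rose (24.6% of all genes), and 1 rose on each of the 3 other scales. The 2 were Kdm1a, a histone demethylase, by 0.37 (adjusted p = 0.000288) and Nsd1, which methylates histone H3 at lysine 36, by 0.25 (adjusted p = 0.0212). Between Released and Control limma called 0 of the 6, with 1 at an unadjusted p under 0.05; 12.5% of all genes were called.

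Among the erasers, Tet2 (chromosome 3, 133463679 to 133545139, minus strand) rose in KO and in Released cells. It measured 997 and 994 normalised counts in KO, against 671 and 685 in WT, with tight replicates and no overlap (0.55, SE 0.067, adjusted p = 2.05e-05). In Released it measured 1651 and 1592, against 1005 and 1043 in ETO (0.66, SE 0.067, adjusted p = 5.91e-07) and 996 and 1014 in Control (0.69, SE 0.067, adjusted p = 1.17e-05). The ETO and Control libraries overlapped (0.027, interval -0.12 to 0.17, adjusted p = 0.752), though with total signal as the scale ETO was called higher (0.20, adjusted p = 0.0197). In FPKM the Released changes kept their size, 0.55 against ETO (adjusted p = 0.0542) and 0.71 against Control (adjusted p = 0.114), but were not called.

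Tet1 (chromosome 10, 62804570 to 62908996, minus strand), the main Tet gene by FPKM, measured 5130 and 5353 in KO, against 3414 and 3728 in WT, a rise of 0.55 (SE 0.11, adjusted p = 0.00147). It measured 2522 and 3439 in ETO, against 5099 and 5052 in Control, a fall of 0.79 (SE 0.11, adjusted p = 3.32e-05), with ETO replicates that stood apart. Released libraries measured 4692 and 4803, above ETO (0.69, SE 0.11, adjusted p = 0.000117) and below both Control libraries (-0.096, interval -0.33 to 0.14). The FPKM table gave smaller Tet1 differences. There the change was 0.22 in KO (adjusted p = 0.393), -0.38 in ETO (adjusted p = 0.0919) and 0.28 in Released against ETO (adjusted p = 0.205). Tet1 measured 43.2 and 43.4 FPKM in KO, against 36.9 and 37.6 in WT, and 29.6 and 24.1 in ETO, against 39.6 and 30.6 in Control. The Control libraries, nearly equal by normalised count, thus differed by FPKM. The KO call was also lost without WT replicate 1 (0.49, adjusted p = 0.084).

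Tet3 (chromosome 6, 83362373 to 83459084, minus strand) was the least abundant Tet gene by FPKM, with 36 to 345 estimated reads per library. It measured 243 and 286 normalised counts in ETO, against 129 and 97.6 in Control, a rise of 1.23 (SE 0.23, adjusted p = 0.000256). Released libraries measured 196 and 202, between the other groups: above Control (0.82, SE 0.23, adjusted p = 0.0289) and below ETO (-0.41, interval -0.90 to 0.078, adjusted p = 0.138; 0.0167 with E14tg2a libraries alone and 0.036 and 0.039 without KO replicate 1 and 2). It measured 48.4 and 90.3 in KO, against 102 and 96.2 in WT; the KO libraries lay lower but differed from each other (-0.57, interval -1.06 to -0.087, adjusted p = 0.0604). On the 3 other scales Tet3 was called lower in KO (-0.65 to -0.74), as it was without KO replicate 2 (-1.02). The rise in Released over Control was lost without either Released or either Control replicate (adjusted p 0.056 to 0.24). In FPKM none of the Tet3 changes was called, and the Released change against ETO was 0.19.

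The share of each Tet gene in their summed FPKM also differed between groups. Tet1 made up 71.2% to 74.9% in KO, against 78.02% to 79.0% in WT, and Tet2 24.4% to 27.8% in KO, against 19.4% to 20.3% in WT. In the E14tg2a groups Tet1 made up 56.6% to 58.1% in Released and 57.4% to 65.4% in ETO, against 70.5% to 70.8% in Control. Tet2 made up 36.6% to 40.7% in Released and 30.6% to 38.2% in ETO, against 26.5% to 27.8% in Control. The Tet1 share was thus lower in KO than in WT, and lower in Released and ETO than in Control, in every library. The KO difference in share rests on FPKM: by normalised count Tet1 and Tet2 each rose by 0.55 in KO.

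**Figure D4:**
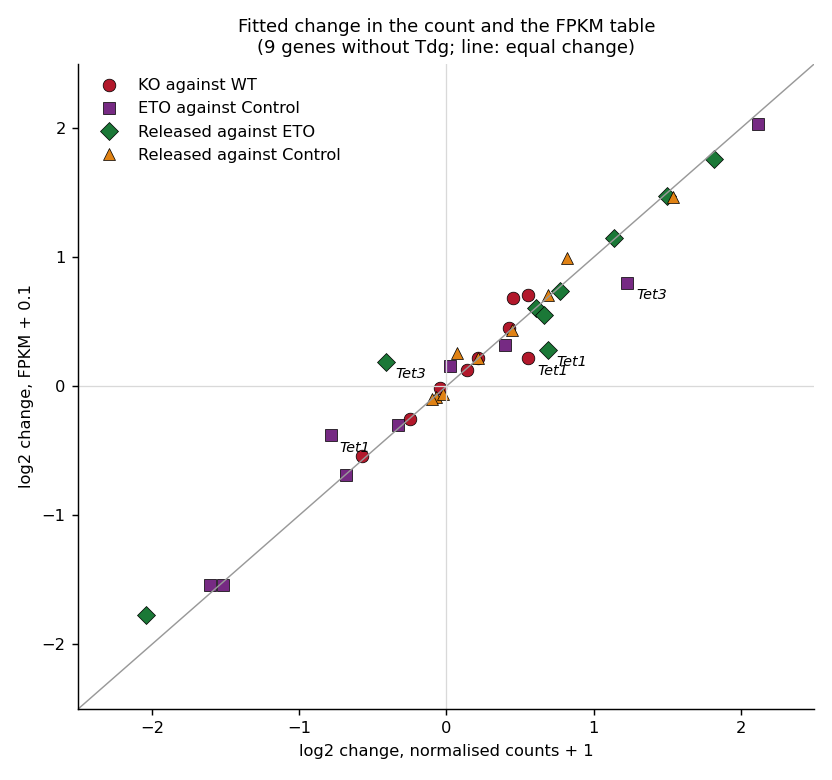
Fitted log2 change from the normalised counts (x axis) and from the FPKM values (y axis) for 9 genes without Tdg, in 4 comparisons; the line marks equal change. Most points lie near the line; the labelled Tet1 and Tet3 points lie away from it, with Tet3 at -0.41 by count and 0.19 by FPKM in Released against ETO.

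Tdg (chromosome 10, 82629828 to 82650799, plus strand) was near the floor. It measured 13.5 and 23.6 normalised counts in KO, against 11.1 and 18.7 in WT. It measured 4.82 and 8.20 in Released and 2.97 and 11.6 in ETO, against 6.60 and 5.19 in Control. These values rest on 3 to 19 estimated reads per library, all groups compared overlapped, and no change was called, nor had an unadjusted p under 0.05 (0.612 to 0.938; standard error 0.56; interval -0.90 to 1.48 between KO and WT, and -1.14 to 1.23 between ETO and Control). The row is uncertain as a measure of the gene, because processed pseudogenes carry near-identical sequence. Gm9855 matches 1194 transcript bases of Tdg at 99.2% identity and had 79.7 to 153 normalised counts, more than Tdg in every library. Tdg-ps matches 2968 bases at 98.7% and had 0 to 0.988, and Gm5597 matches 1193 bases at 99.3% and had 0 to 1.04. How reads were assigned among these copies was not tested.

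Genes that act beside Tet and Tdg showed no common direction. Of 13 measured genes of base excision and demethylation, 4 rose and 5 fell in KO (24.6% and 13.3% of all genes), and 4 rose and 6 fell in ETO (26.8% and 34.0%). Gadd45a, a stress gene linked to demethylation, averaged 555 ± 62.3 in KO and 256 ± 3.18 in WT (1.11, adjusted p = 2.05e-05). It averaged 580 ± 2.97 in ETO and 76.7 ± 13.8 in Control (2.92, adjusted p = 9.31e-11). In Released it averaged 106 ± 7.14, below ETO (-2.45, adjusted p = 8.02e-10) and above Control (0.47, adjusted p = 0.0336). Its paralogs fell in KO: Gadd45g measured 90.1 and 99.5 in KO, against 307 and 236 in WT (-1.50, adjusted p = 0.000489), and Gadd45b 456 and 478 in KO, against 758 and 687 in WT (-0.63, adjusted p = 0.000612). In ETO against Control Gadd45g rose (3.25, adjusted p = 4.81e-08) and Gadd45b fell (-0.47, adjusted p = 0.00233). Apex1, the endonuclease that cuts at abasic sites left by glycosylases, averaged 2607 ± 2.71 in KO and 2066 ± 21.0 in WT (0.34, adjusted p = 0.000395), and 1417 ± 11.9 in ETO and 2595 ± 77.0 in Control (-0.87, adjusted p = 4.73e-09). Ogt, a glycosyltransferase that binds Tet proteins, rose by 0.54 in KO (adjusted p = 8.05e-06).

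Of 10 measured genes of methyl donor and Tet cofactor metabolism, 3 rose in KO and none fell (3 and 2 with total signal as the scale), where 24.6% of all genes rose and 13.3% fell. In ETO 3 rose and 5 fell (26.8% and 34.0% of all genes). Mat2a, which makes the methyl donor S-adenosylmethionine, averaged 3897 ± 366 in KO and 1822 ± 101 in WT (1.09, adjusted p = 1.2e-07), but 3270 ± 194 in ETO and 5821 ± 126 in Control (-0.83, adjusted p = 7.08e-08). Its regulatory subunit gene Mat2b rose in KO by 0.59 (adjusted p = 9.98e-06) and fell by 0.79 in ETO (adjusted p = 4.99e-08). The differences between the KO and ETO changes were 1.93 for Mat2a (adjusted p = 1.44e-09) and 1.37 for Mat2b (adjusted p = 1.49e-08). In Released both were above ETO, Mat2a by 0.85 (adjusted p = 6.88e-08) and Mat2b by 0.62 (adjusted p = 7.98e-07). Between Released and Control limma called 0 of the 10 (12.5% of all genes), with 1 at an unadjusted p under 0.05.

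Zfp57 (chromosome 17, 37001163 to 37010635, plus strand) rose in KO and after release. It measured 5141 and 5512 normalised counts in KO, against 3751 and 4197 in WT, with no overlap (0.42, SE 0.069, adjusted p = 0.00023). In Released it measured 8398 and 8404, against 5228 and 4625 in ETO (0.77, SE 0.069, adjusted p = 1.44e-07) and 6249 and 6087 in Control (0.45, SE 0.069, adjusted p = 0.000652). Both Released libraries lay above those of ETO and Control, and the change against Control was 0.44 in FPKM (adjusted p = 0.0539). ETO lay below Control in both libraries, a fall of 0.33 (SE 0.069, adjusted p = 0.000705). With total signal as the scale that fall was -0.16 with an adjusted p of 0.0541.

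The heterochromatin partners of Zfp57 mostly fell in ETO, 7 of 9, with 2 higher (34.0% of all genes fell and 26.8% rose). Trim28, the corepressor that KRAB zinc finger proteins bind, averaged 11728 ± 468 in ETO and 20401 ± 231 in Control (-0.80, adjusted p = 2.96e-08). Setdb1, which Trim28 recruits to methylate histone H3 at lysine 9, averaged 2700 ± 143 in ETO and 5172 ± 70.6 in Control (-0.94, adjusted p = 2.25e-09). In Released Setdb1 averaged 5991 ± 175, above ETO (1.15, adjusted p = 3.69e-10) and above Control (0.21, adjusted p = 0.0276). Cbx1, an HP1 protein that binds methylated lysine 9, averaged 4137 ± 58.7 in KO and 3288 ± 197 in WT (0.33, adjusted p = 0.000516), and it fell by 1.16 in ETO (adjusted p = 2.75e-10). In KO 4 of the 9 rose and none fell (24.6% and 13.3% of all genes).

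**Figure D5:**
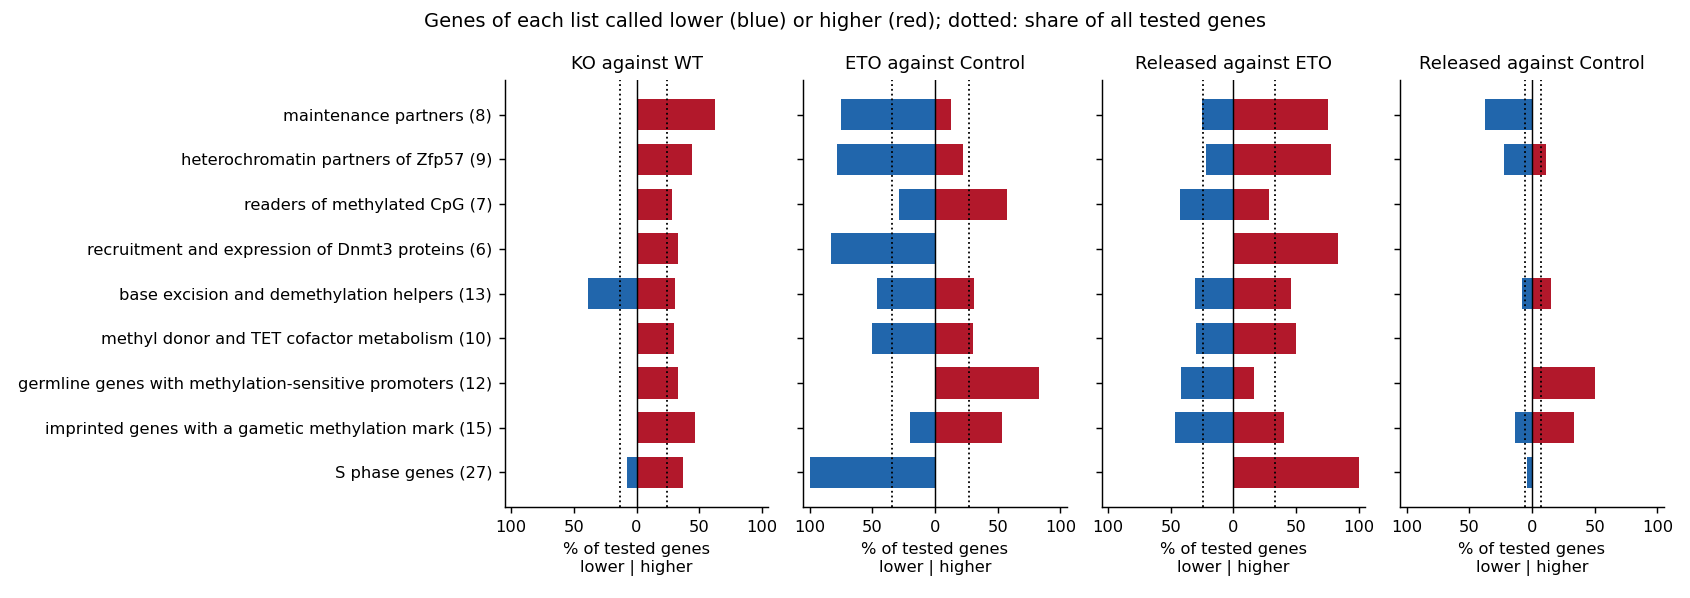
Percent of the measured genes of each list (rows, number in parentheses) called higher (red, right) or lower (blue, left) in 4 comparisons; dotted lines give the shares of all tested genes. All 27 S phase genes lie on the lower side and 10 of 12 germline genes on the higher side in ETO against Control.

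Genes known to respond to DNA methylation were also read. Of 12 germline genes whose promoters are methylated in somatic cells, 10 rose and none fell in ETO, where 26.8% of all genes rose (median log2 change 1.05 beside -0.094). Taf7l, a germ cell transcription factor subunit, averaged 82.9 ± 2.57 in ETO and 11.2 ± 0.289 in Control (2.78, adjusted p = 1.26e-06). Hormad1, a meiotic chromosome axis protein, averaged 172 ± 21.8 in ETO and 65.8 ± 6.52 in Control (1.37, adjusted p = 1.11e-05). Against Control, 6 of the 12 were higher in Released, where 7.03% of all genes rose, with Asz1 at 55.9 ± 2.79 in Released and 12.4 ± 7.32 in Control (2.20, adjusted p = 0.00333). In the FPKM values limma called 0 of the 12 there and 348 of all 16056 genes, with 8 of the 12 at an unadjusted p under 0.05. Dazl, a germ cell RNA-binding protein, averaged 312 ± 73.7 in KO and 149 ± 37.9 in WT (1.06, adjusted p = 0.000155), 1 of 4 of the 12 called higher in KO (24.6% of all genes). Dazl averaged 379 ± 10.03 in Released and 756 ± 15.7 in ETO (-0.996, adjusted p = 9.16e-05).

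Of 15 measured imprinted genes with a gametic methylation mark, 7 rose and none fell in KO (5 and 1 with total signal as the scale), where 24.6% of all genes rose and 13.3% fell. Peg3, paternally expressed, averaged 7712 ± 153 in KO and 4391 ± 249 in WT (0.81, adjusted p = 3.07e-06), and Rian, a maternally expressed RNA, averaged 938 ± 134 in KO and 369 ± 38.1 in WT (1.34, adjusted p = 1.73e-06). In ETO 8 rose and 3 fell (26.8% and 34.0% of all genes). Grb10, a growth inhibitor, averaged 2977 ± 108 in ETO and 661 ± 4.85 in Control (2.17, adjusted p = 2.41e-12), while Plagl1, a zinc finger factor, averaged 316 ± 13.5 in ETO and 805 ± 36.8 in Control (-1.35, adjusted p = 1.58e-09). Against Control, 5 were higher and 2 lower in Released (7.03% and 5.51% of all genes), with Igf2, a growth factor, at 85.8 ± 1.33 in Released and 9.66 ± 1.91 in Control (3.04, adjusted p = 1.14e-05). In the FPKM values limma called 0 of the 15 and 348 of all 16056 genes between Released and Control, with 7 of the 15 at an unadjusted p under 0.05. Of 7 measured genes from families that read methylated CpG, 2 rose in KO, Zbtb38 and Mbd3, and none fell (24.6% and 13.3% of all genes). On each of the 3 other scales 1 rose and 1 fell. In ETO 4 rose and 2, Mbd4 and Mbd3, fell (26.8% and 34.0%). Zbtb38, a zinc finger reader, rose in both (0.51, adjusted p = 0.000143 in KO and 0.65, adjusted p = 3.19e-06 in ETO).

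The KO and ETO changes were compared directly by the difference of the 2 log2 changes, which spans 2 cell lines. Of the 10 genes, 8 differed (6 with the more positive change in KO and 2 in ETO), where 54.5% of all genes did (32.3% and 22.2%). Genes with the more positive change in KO made up 59.3% of calls over all genes on the deposited scale and 35.9% to 48.2% on the 3 other scales. Dnmt3a differed most among the 10, with changes of -0.047 in KO and 2.11 in ETO (difference -2.16, SE 0.16, adjusted p = 4.28e-08). Dnmt3b had 0.22 in KO and -1.60 in ETO (1.82, SE 0.11, adjusted p = 5.04e-09), and Uhrf1 -0.25 in KO and -1.52 in ETO (1.27, SE 0.077, adjusted p = 6.23e-09). Dnmt1, Tet1 and Zfp57 had positive changes in KO (Dnmt1 -0.025 with total signal as the scale) and negative ones in ETO, with differences of 0.82, 1.34 and 0.75. For Tet1 the difference in FPKM was 0.60 with an adjusted p of 0.0756. Dnmt3l rose in both, by 0.45 in KO and 0.40 in ETO, and the difference of 0.055 had an interval from -0.24 to 0.35; on the 3 other scales that difference was -0.107 to -0.280.

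Across the 5 groups, mean normalised counts ordered the genes differently. Dnmt1 ran KO, WT, Control, Released and ETO from high to low with no overlap between neighbours. Uhrf1 ran WT, KO, Control, Released and ETO, with Control and Released overlapping. Dnmt3a ran ETO, WT, KO, Released and Control, with overlap of WT and KO and of Released and Control. Dnmt3b ran Released, Control, KO, WT and ETO, and Dnmt3l Released, ETO, Control, KO and WT, all neighbours apart. Levels of Mof and E14tg2a cells also differ by line, so only the order is given across them. Among Tet1 neighbours WT and ETO overlapped, among Tet2 neighbours ETO, Control and KO did, among Tet3 neighbours Control and WT, and among Zfp57 neighbours KO and ETO.

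With each gene centred on the mean of its own experiment, the 10 genes were correlated over the 10 libraries, which share depth and scale within each library. Dnmt1, Uhrf1 and Dnmt3b ran together (Pearson's r 0.93 to 0.96), and Dnmt3a ran against Dnmt1, Uhrf1 and Dnmt3b (-0.95 to -0.98). Such values were not particular to the 10 genes. The median r of the 27 S phase genes was 0.953 with Dnmt1, 0.951 with Uhrf1, 0.963 with Dnmt3b and -0.975 with Dnmt3a. Dnmt3l ran with Tet2 (0.92) and Tet2 with Zfp57 (0.89). These values describe 10 points that fall into 5 groups, and r was not computed within each experiment. Between KO and WT, Uhrf1 did not move with Dnmt1 and Dnmt3b. The log2 changes there were -0.25 for Uhrf1, 0.14 for Dnmt1, 0.22 for Dnmt3b and -0.047 for Dnmt3a. Between ETO and Control they were larger in size: -1.52, -0.68, -1.60 and 2.11 in the same order. The tested genes most like Uhrf1 were Lig1, Xrcc6 and Kdm3b (each 0.998), and those most like Dnmt1 were Top3a (0.995), Polr2a (0.994) and Dlgap3 (0.993). Dnmt3b was most like Ticrr (0.997), Uqcr10 (0.995) and Sfrp1 (0.994), and Dnmt3a most like Cldn4 (0.997), AU018091 (0.996) and Crb3 (0.996). Dnmt3l was most like Rhox5 (0.975), Trim44 (0.967) and Nptx2 (0.965). Tet1 was most like Erh (0.992), Cdk19 (0.985) and Gen1 (0.981), Tet2 like Arhgap32 (0.984), Nectin1 (0.981) and Tgm3 (0.971), and Tet3 like Ehd4 (0.948), Pet2 (0.945) and Tmem141 (0.943). Among the genes most like Zfp57 were Npr3 (0.974) and Mcts2 (0.972), and Tdg, with few reads, was most like Pik3r1 (0.900), Tyw5 (0.891) and Hspa1a (0.839).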

How the data were processed

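RNA sequencing values of 10 libraries were used. The authors deposited a table of normalised counts, a signal in which, from the values, the reads of each library are divided by 1 factor (0.689 to 1.35 per read), and a table of FPKM values, fragments per transcript length and depth. Of the count values, 84.4% to 85.6% were whole reads within 0.1 read, too few for a count model. Per the submitters' processing notes, TopHat2 2.1.1, SAMtools 1.5, deepTools and mm10 were used; the counting tool and its use of strand are not given in the sources used here.

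Values were taken as log2(value + 1), genes with at least 10 in at least 2 libraries were kept (16056), and limma 3.58.1 in R 4.3.3 fitted 1 mean per group over all 10 libraries, with trend and robust moderation. P-values were adjusted by Benjamini-Hochberg over all tested genes, with 0.05 as the threshold. SE is the standard error, intervals are 95%, and mean ± SD has n = 2. A log2 change on this scale understates the change of low genes. Rows of 2 mitochondrial genes listed at 0 in Released replicate 1 were left out. FPKM values were fitted as log2(FPKM + 0.1). The genes, lists and tests were chosen with earlier results of these data known. The text names the 10 genes, Kat8, up to 3 called genes of each list per comparison by smallest adjusted p, and the 3 genes most correlated with each member, of which a gene for Zfp57 is not reported here. Dppa3, Gadd45b, Gadd45g, the marker genes, Gm9855, Gm5648 and other copies or overlapping genes were named after their values were seen. Loci and transcripts are from GENCODE M21 (mm10), and copies were sought with BLAST+ 2.17.0. The procedure was tested on simulated data. Alternatives were other scales, filters, pseudocounts, moderation, FPKM, each experiment alone, a replicate block and each library left out.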

Additional observations from a re-analysis of the deposited data

Results flagged for a closer look

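For 8 of the 10 genes the log2 change in KO against WT differed from that in ETO against Control by a limma test of the difference itself. The KO change minus the ETO change was 0.82 for Dnmt1, -2.16 for Dnmt3a, 1.82 for Dnmt3b, 1.27 for Uhrf1, 1.34 for Tet1, 0.53 for Tet2, -1.80 for Tet3 and 0.75 for Zfp57 (adjusted p 5.04e-09 to 0.000245). Such a difference was called for 54.5% of all tested genes. The calls of Tet1, Tet2 and Tet3 were lost in the FPKM values, where the differences were 0.60, 0.55 and -1.34, and that of Tet2 also with total signal as the scale (0.19).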

How the results depend on the processing

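Over 21 alternatives the 50 changes of the 10 genes were recomputed as 1035 values: 958 kept direction and side of the threshold, 35 lost a call, 15 gained one and 27 turned direction. The cause of these shifts was not tested. In FPKM, 2959 genes were called for KO against WT and 348 for Released against Control, and of the 10 genes KO against WT had 3 called, ETO against Control had 5, Released against Control had 1 and the difference of KO and ETO changes had 5. For Released against Control, 3662 genes were called with each experiment alone and 1171 without trend and robust fitting. Leaving out each library in turn, KO against WT gave 4635 to 5912 genes, ETO against Control gave 8357 to 10161, Released against ETO gave 7554 to 9685, Released against Control gave 770 to 2864 and the difference gave 7702 to 8668. Released against Control gave 828 and 770 genes without Released replicate 1 and 2, and 882 and 896 without Control replicate 1 and 2, where 2012 were called with all libraries. Of the 10 genes, KO against WT then gave 4 to 6, ETO against Control gave 8, Released against ETO gave 8 to 9, Released against Control gave 3 to 5 and the difference gave 8.

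Directions turned for changes that were not called. With total signal, Dnmt1 in KO was -0.025 and Uhrf1 in Released against Control 0.014. Dnmt3a without single libraries ranged from -0.148 to 0.054 in KO and from -0.026 to 0.167 in Released against Control. The Dnmt3l difference was -0.128 with median-of-ratios factors, -0.280 with total signal and -0.107 with upper-quartile factors, and ranged from -0.104 to 0.214 without single libraries. Tet3 in Released against ETO was 0.189 in FPKM. Tdg, with 3 to 19 reads, turned most often. In Released against ETO it was -0.033 with median-of-ratios factors, -0.063 with total signal and -0.015 with a pseudocount of 5, and its difference was -0.054 with total signal and -0.442 in FPKM. Without single libraries, Tdg ranged from -0.094 to 0.671 in KO, -0.791 to 0.880 in ETO, -0.787 to 0.884 in Released against ETO, -0.237 to 0.424 in Released against Control and -0.591 to 1.08 in the difference.

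Equal replicate numbers do not pair libraries by the labels, and deviations of same-numbered libraries correlated at 0.081 for KO and WT, -0.015 for Released and ETO, 0.038 for Released and Control and -0.015 for ETO and Control. With a replicate block 3110 genes were called for Released against Control. The block added calls for Dnmt1 (adjusted p = 0.0267) and Tet3 (adjusted p = 0.0409) in KO and for Dnmt3b in Released against Control (adjusted p = 0.0343), and lost none of the 10 genes.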
